A study of Homo sapiens with 6 samples.

Results

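The 42 genes described here encode proteins of the lysosome and of autophagy, with the cathepsin proteases left out. They were chosen by symbol, and each probe set whose only annotated gene was one of them was taken. Of the 42, 41 had at least 1 such probe set, with 103 probe sets in all, out of 19775 genes and 54613 probe sets on the array. GLB1 had 1 probe set, annotated together with another gene, and was not analysed here. The cells were NCI-H292, an established line of human lung mucoepidermoid carcinoma, and all were stably transfected. Those of the CT45A1 overexpression group carried a CT45A1-Venus fusion, in which a cancer/testis antigen is tagged with a fluorescent protein. Those of the CT45A1 negative group carried the vector with Venus. Each group had 3 replicates with 1 array each, and both were grown in complete DMEM with serum. The labels say neither whether the transfected lines were clones or pools nor whether the replicates were separate cultures, and a p-value here therefore speaks of the spread among these 6 arrays, part of which may be technical.

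Lysosomes are acidic organelles that break down lipids, sugars, proteins and nucleic acids. A proton pump, the V-ATPase, acidifies their lumen, and soluble hydrolases and their cofactors do the degradation. Autophagy feeds them cytoplasm: the ULK1 kinase and a lipid kinase complex containing BECN1 start a membrane that WIPI proteins and the ATG conjugation machinery extend, ATG8 proteins such as LC3 coat it, and receptors such as SQSTM1 bring in cargo. TFEB and TFE3 are transcription factors that enter the nucleus when the kinase mTORC1 is inactive and activate many of these genes through an E-box known as the CLEAR motif.

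The labels were checked at the CT45 genes. At the brighter of the CT45 probe sets, each annotated to 9 CT45 genes, the signal was 518, 700.1 and 445 on the overexpression arrays, against 23.1, 15.8 and 1.95 on the negative arrays. The negative group's mean lay below the array median at both CT45 probe sets, so the size of the difference is not well measured there. All 8 airway epithelial markers listed passed the filter on dim probe sets, while 0 of 5 lymphocyte and 0 of 6 fibroblast markers on the array did, with 2 of 6 macrophage and 2 of 5 endothelial markers. Summed signals of the macrophage markers were 361 to 467 with CT45A1, against 176 to 498 without it, and those of the epithelial markers were 75080 to 75571, against 76049 to 81985. Lymphocyte markers gave 192 to 262, against 197 to 255. Endothelial markers gave 380 to 466, against 283 to 354, and fibroblast markers 169 to 204, against 110 to 164, so these sums were higher with CT45A1, without overlap. The actin 3'/5' signal ratio, which tracks RNA integrity and labelling length, was 1.42, 1.49 and 1.55 on the overexpression arrays, against 1.70, 1.64 and 1.91 on the negative arrays. Every overexpression array had a lower ratio than every negative array, so this ratio moves with the comparison. The GAPDH 3'/5' ratio did so too, at 1.01, 0.97 and 1.04 on the overexpression arrays, against 1.09, 1.05 and 1.18 on the negative arrays.

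Of the 41 genes tested, 1 rose with CT45A1, WIPI1, and 0 fell, in limma at an adjusted p under 0.05 over 11895 genes. Among all genes tested, 1.94% were called higher and 1.89% lower (3.83% in either direction, 231 and 225 genes, or 165 and 1650 when each array was centred on its median), and the members' shares, 1 of 41 and 0 of 41, lie near that background. An unadjusted p under 0.05 was reached by 7 members on the higher side and 2 on the lower side, against 20.9% of all genes in either direction. These counts depended on the scaling. They were 1 and 12 when each array was centred on its median, and 8 and 2 after quantile normalization and after cyclic loess. The groups did not overlap for 8 members that were higher with CT45A1 and for 5 that were lower, against 13.4% and 13.8% of all genes tested (27.2% in either direction). The median difference over the members was 0.045 on the log2 scale, overexpression minus negative as throughout, and the median over all genes was 0.0085.

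For 32 of the 41 members the log2 difference was under 0.2 in size, as it was for 64.1% of all genes tested. The 9 beyond that were WIPI1, ULK1, TFEB, NEU1, GAA, PSAP and GRN above 0 and UVRAG and TPP1 below. The 95% interval of the difference lay wholly inside a 1.5-fold change for 37 of the 41, against 69.7% of all genes. The members had a median standard error of 0.083, against 0.114 over all genes. The 4 members whose interval reached beyond 1.5-fold were WIPI1, ULK1, TFEB and GAA. The intervals are those of single genes and are not adjusted for their number.

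**Figure D1:**
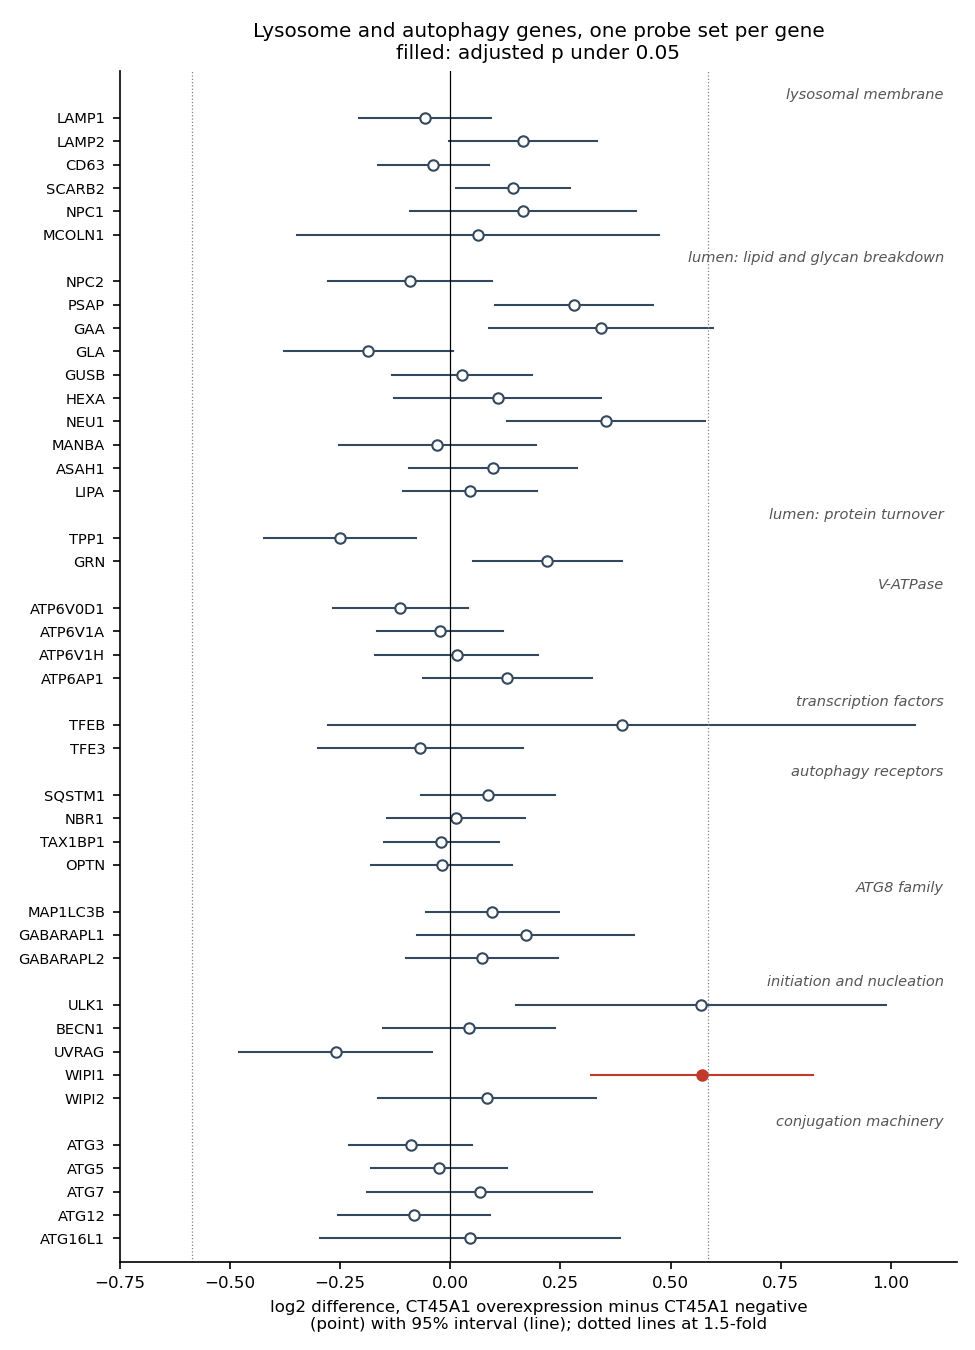
Each line gives 1 of the 41 members tested, sorted by role, with the log2 difference of CT45A1 overexpression minus CT45A1 negative as a point and its 95% interval as a bar. WIPI1 is the filled point, at 0.57, and 37 of the 41 intervals lie between the dotted lines at 1.5-fold.

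WIPI1 rose with CT45A1 at both of its probe sets in the values as deposited. It encodes a protein that binds phosphatidylinositol 3-phosphate on nascent autophagosomes. At the brighter probe set the signal was 639, 569 and 538 on the overexpression arrays, against 408, 391 and 375 on the negative arrays. Every overexpression array lay above every negative array. The mean log2 signal was 9.18 ± 0.13 with CT45A1 and 8.61 ± 0.062 without it (SD, n = 3 each), a difference of 0.57 (SE 0.11, 95% interval 0.32 to 0.82, limma adjusted p = 0.0263). The other probe set gave 558, 547 and 518, against 386, 360.2 and 398, a difference of 0.51 (SE 0.11, adjusted p = 0.0377 over all probe sets). Again no overexpression array came down to the level of a negative one. In RNA pooled over a culture, a change in some cells and a smaller change in all of them cannot be told apart.

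The gene-level WIPI1 call was lost when overexpression replicate 1 or 2 or negative replicate 1 or 2 was left out, with differences of 0.50, 0.59, 0.60 and 0.57 (adjusted p = 0.102, 0.105, 0.0706 and 0.0761), and without the variance trend (adjusted p = 0.0936). With the actin ratio in the model the difference was 0.39 (SE 0.20, adjusted p = 0.320). That ratio moves with the comparison, so this fit cannot tell RNA quality and CT45A1 apart. Whether RNA quality has a part in the WIPI1 difference was not tested. The dimmer probe set passed in 5 of 16 alternatives, and its adjusted p was 0.0634 after quantile normalization, 0.0627 with median centring and 0.0632 after cyclic loess.

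**Figure D2:**
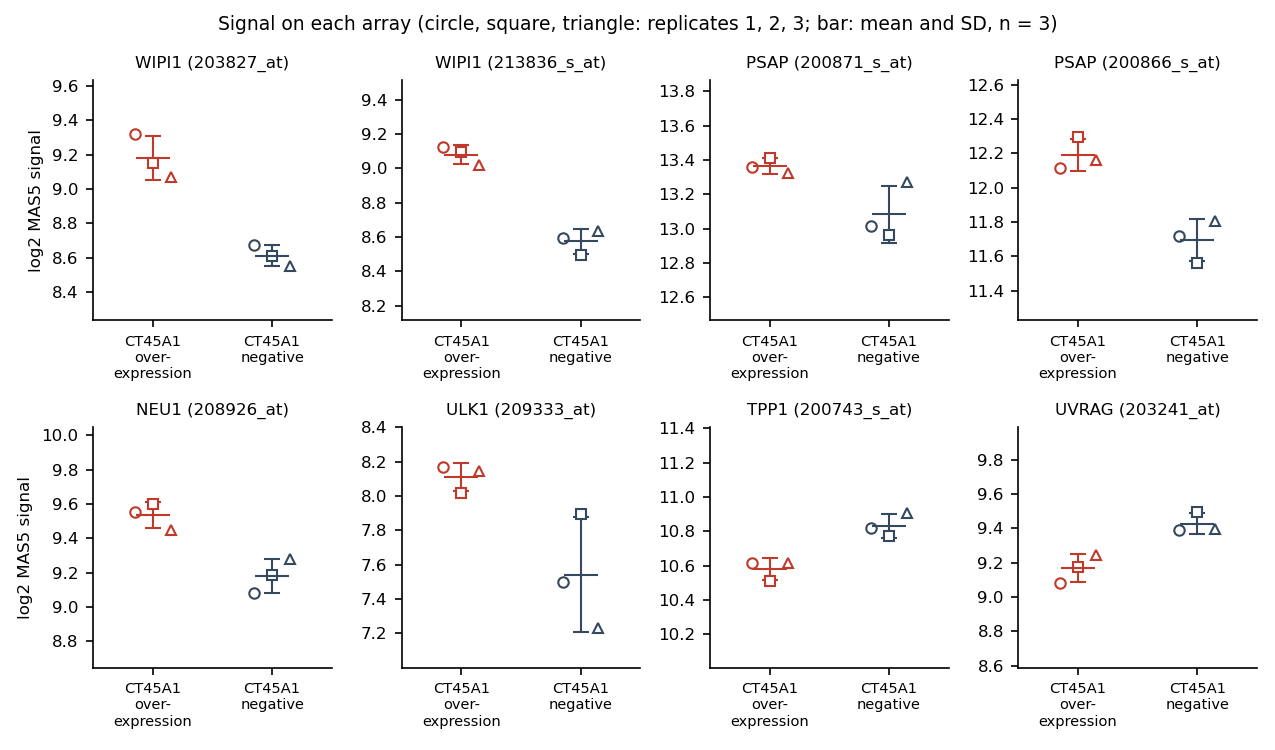
Log2 MAS5 signal on each array for WIPI1 and PSAP, at 2 probe sets each, and for NEU1, ULK1, TPP1 and UVRAG, with CT45A1 overexpression left of CT45A1 negative, open symbols for replicates and bars for the mean and SD of 3 arrays. Each panel spans the same log2 range, and the groups do not overlap in any of the 8 panels.

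Since WIPI1 is the member that passed at both probe sets, the RefSeq bases directly before its start site are shown (GRCh38.p14, chr17:68457497-68457746, minus strand, 250 bases). They hold no CACGTG, and neither do the 50 bases after the start.
WIPI1: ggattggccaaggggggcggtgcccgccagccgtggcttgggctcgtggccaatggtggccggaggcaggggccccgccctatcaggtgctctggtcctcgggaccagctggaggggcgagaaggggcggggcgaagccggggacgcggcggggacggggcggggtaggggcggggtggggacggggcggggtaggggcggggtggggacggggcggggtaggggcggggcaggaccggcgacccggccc

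The same window, 250 bases before to 50 after the start, was read for the 34 of the 42 genes, GLB1 included, with an entry in the RefSeq promoter table. LAMP2, PSAP, HEXA, MANBA, ASAH1, ATP6V1A, ATP6V1H and UVRAG had no entry. The E-box CACGTG and the longer TCACGTGA, the inner part of the CLEAR motif, were searched, and each reads the same on both strands, so every TCACGTGA also counts as a CACGTG. TCACGTGA lay in 5 of the 34 windows (14.7%), against 283 of 27305 windows in the table (1.04%), 192 of 9718 of the genes tested (1.98%) and 12 of 110 of the other pathway genes described further on (10.9%). CACGTG lay in 7 of 34 (20.6%), against 7.43% of all windows, 10.2% of those of the genes tested and 23.6% of those of the other pathway genes. The 5 were GAA, LAMP1, MCOLN1, ATP6V0D1 and ATG3, and CD63 and NEU1 held the shorter motif alone. In ATG3 TCACGTGA lay after the start, so its bases are not printed. For the other 4 the bases around the matches before the start are given, since these hold an exact copy of TCACGTGA there, which capitals mark.
GAA (chr17:80101474-80101580, plus strand): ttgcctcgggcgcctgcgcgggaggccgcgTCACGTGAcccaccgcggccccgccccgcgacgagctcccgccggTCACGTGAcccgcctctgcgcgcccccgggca
ATP6V0D1 (chr16:67481180-67481247, minus strand): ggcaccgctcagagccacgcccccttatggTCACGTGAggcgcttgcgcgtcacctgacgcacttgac
LAMP1 (chr13:113297180-113297238, plus strand): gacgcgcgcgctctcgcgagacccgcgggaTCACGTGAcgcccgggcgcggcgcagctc
MCOLN1 (chr19:7522552-7522623, plus strand): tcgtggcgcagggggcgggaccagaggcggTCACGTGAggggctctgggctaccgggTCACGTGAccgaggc

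The members with this motif lay on both sides of 0. GAA, which carried 2 copies, differed by 0.34, MCOLN1, also with 2 copies, by 0.063, LAMP1, with a second copy that spans the start and is not printed, by -0.058, ATG3 by -0.090 and ATP6V0D1 by -0.11. Of the 5, 2 lay above 0 and 3 below, with a median of -0.058, and 0 passed the test, although GAA and no other of them reached an unadjusted p under 0.05 in limma. The 26 members without CACGTG had a median of 0.056, with 18 above 0 and 8 below. A match is a description of the letters and not of a bound site. The search took exact copies in these windows only. Variant copies, or copies further from the start, would be missed, in WIPI1 as in the others.

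TFEB and TFE3, the regulators that use this motif, did not pass. TFEB gave 99.2, 134 and 139 with CT45A1, against 101, 66.8 and 122 without it, so the arrays of the groups overlapped and negative replicate 2 was the lowest. The difference was 0.39 with the widest interval of the set, -0.28 to 1.05 (adjusted p = 0.489), and it was 1.20 with the actin ratio in the model (adjusted p = 0.213). TFE3 gave 2009, 2199 and 2282, against 2441, 2477 and 1921, a difference of -0.068 (95% interval -0.30 to 0.16, adjusted p = 0.756). Both transcripts could therefore be read only to within their intervals, and the activity of the proteins, which depends on their location in the cell, was not measured.

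Of the 6 membrane proteins of the lysosome, 0 passed in limma, and 1 had an unadjusted p under 0.05. That gene was SCARB2, the receptor that carries glucocerebrosidase to lysosomes, with 4946, 4966 and 4889.7 on the overexpression arrays, against 4547, 4451 and 4415 on the negative arrays. The groups did not overlap and the replicates differed little, but the difference was 0.14 (95% interval 0.013 to 0.27, adjusted p = 0.203). The next SCARB2 probe set differed by 0.29, also with no overlap (adjusted p = 0.109 over all probe sets). Its dimmer sets differed by 0.11 and -0.036, with overlapping groups. LAMP2, a major glycoprotein of the membrane and a receptor for chaperone-mediated autophagy, gave 7593, 8093 and 6853, against 6980.1, 6836 and 6259. Its overexpression replicate 3 lay below negative replicate 1, and the difference was 0.17 (adjusted p = 0.246).

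LAMP1, the other major membrane glycoprotein, gave 16810.3, 16324 and 17788 at its brightest probe set, against 16590.2, 17214 and 19286, with overlapping groups. The difference there was -0.058 (95% interval -0.21 to 0.091). CD63, a tetraspanin of lysosomes and late endosomes, differed by -0.038, NPC1, which moves cholesterol out of the lysosome, by 0.17, and MCOLN1, a calcium channel of the membrane, by 0.063. All 3 had overlapping groups and adjusted p-values of 0.744, 0.439 and 0.880.

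Of the 10 luminal hydrolases and cofactors of lipid and sugar breakdown tested, 0 passed at their brightest probe sets in limma. An unadjusted p under 0.05 was reached by 3, all higher with CT45A1, against 20.9% of all genes in either direction. With median centring WIPI1 was the only 1 of the 41 members to reach it on the higher side. PSAP, the precursor of the saposins that present lipids to hydrolases, was split between its probe sets. At the brighter it gave 10515, 10905 and 10242 with CT45A1, against 8289.7, 7973 and 9894 without it, a difference of 0.28 (SE 0.081, adjusted p = 0.0918). At the other it gave 4435, 5016 and 4578, against 3374, 3021 and 3572, and rose by 0.49 (SE 0.081, adjusted p = 0.0142 over all probe sets).

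No arrays overlapped at either PSAP probe set, and negative replicate 3 lay nearest to the overexpression arrays at both. Left out, that array gave a difference of 0.38 at the brighter probe set (adjusted p = 0.0132). Leaving out any other array gave 0.22 to 0.30 there and did not pass (limma adjusted p from 0.118 to 0.257). The call at the dimmer probe set was lost without overexpression replicate 2 or negative replicate 1 (adjusted p = 0.0749 and 0.0537). With the actin ratio in the model the brighter probe set differed by 0.53 (adjusted p = 0.0314), so PSAP and WIPI1 changed sides of the threshold in opposite ways under that setting.

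NEU1, the lysosomal sialidase, gave 752, 776 and 699.8 with CT45A1, against 542, 582 and 621 without it. Its groups were apart, and the difference of 0.35 missed the threshold (95% interval 0.13 to 0.58, adjusted p = 0.0918). GAA, the acid glucosidase that degrades glycogen, gave 622, 660.4 and 704, against 471, 516 and 585, a difference of 0.34 (95% interval 0.087 to 0.60, adjusted p = 0.133). Again the groups did not overlap.

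GLA, alpha-galactosidase A, lay the other way, with 1562, 1491 and 1680.2 on the overexpression arrays, against 1753, 1681 and 1953 on the negative arrays. Overexpression replicate 3 and negative replicate 2 were almost equal, and the difference was -0.19 (adjusted p = 0.254), which turned to 0.035 with the actin ratio in the model (adjusted p = 0.915). The other 6 luminal genes of this kind all had overlapping groups. They were GUSB (beta-glucuronidase), HEXA (a hexosaminidase subunit), MANBA (beta-mannosidase), ASAH1 (acid ceramidase), LIPA (acid lipase) and NPC2, which hands cholesterol to NPC1. Their differences ran from -0.091 in NPC2 to 0.11 in HEXA.

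The pair of luminal genes tied to protein turnover lay on opposite sides of 0. TPP1, a tripeptidyl peptidase, gave 1569.6, 1456 and 1569.5 with CT45A1, against 1805, 1747 and 1916 without it, a difference of -0.25 (95% interval -0.42 to -0.078, adjusted p = 0.115). No arrays overlapped there, but its next probe set differed by 0.29 in the other direction. GRN, progranulin, gave 2731, 3073 and 3105, against 2514, 2471 and 2654, a difference of 0.22 (adjusted p = 0.141). The 2 further GRN probe sets were at 0.34 and 0.23 (probe-set adjusted p = 0.0717 and 0.188), and the groups were apart at all 3.

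The 4 V-ATPase members lay between -0.11 and 0.13, and 0 passed. ATP6V1A, the catalytic subunit, gave 5351, 5868 and 5519 with CT45A1, against 5919, 5513 and 5577 without it, a difference of -0.024 (95% interval -0.17 to 0.12). ATP6V1H, a regulatory subunit, differed by 0.015, and ATP6AP1, an accessory subunit, by 0.13, both with overlapping groups. ATP6V0D1, a subunit of the membrane sector, gave 2349.5, 2468 and 2522, against 2719, 2673 and 2547. Its overexpression arrays all lay below its negative ones, by 0.11 on average, and it did not pass (adjusted p = 0.374). Of these 4, 0 had an unadjusted p under 0.05 in limma.

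Beside WIPI1, ULK1 and UVRAG had the smallest p-values among the genes that start autophagy. ULK1, the kinase that starts the process, gave 288, 259 and 283 on the overexpression arrays, against 181, 238 and 150.4 on the negative arrays. The groups did not overlap, but the negative arrays were spread and replicate 2 came close to the overexpression level. The difference of 0.57 was as large as that of WIPI1 with a wider interval, 0.15 to 0.99 (SE 0.19, adjusted p = 0.131), and it passed in 0 of 17 alternatives. With the actin ratio in the model it was 0.079 (adjusted p = 0.919), and over the other alternatives it ran from 0.41 to 0.75.

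UVRAG, a partner of BECN1 in the lipid kinase complex, gave 542, 579 and 607 with CT45A1, against 672, 722 and 674 without it. All overexpression arrays lay lower, with a difference of -0.26 (95% interval -0.48 to -0.040, adjusted p = 0.173). BECN1 itself gave 2229.7, 2459 and 2097, against 2393, 2135 and 2058, with overlapping groups and a difference of 0.043. Its second probe set gave 1912, 1864 and 1936, against 1620.4, 1591 and 1551, a difference of 0.26 with no overlap (adjusted p = 0.0775 over all probe sets).

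WIPI2, the relative of WIPI1 that recruits ATG16L1 to the membrane, did not pass. It gave 2304, 2413 and 2933 with CT45A1, against 2665, 2103 and 2445 without it, with overlapping groups and a difference of 0.084 (95% interval -0.16 to 0.33, adjusted p = 0.713). Its other 3 tested probe sets differed by 0.26, 0.022 and 0.057. The difference between the changes of the relatives was not tested.

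The ATG8 proteins are small ubiquitin-like proteins that are joined to lipid on the autophagosome. All 3 members lay above 0 as deposited, after quantile normalization and after cyclic loess, and 1 of 3 with median centring. None of the 3 passed in limma (0 adjusted, 0 at an unadjusted p under 0.05). GABARAP and MAP1LC3A, ATG8 genes outside the members, both lay below 0. They differed by -0.24, with no overlap, and by -0.17, with overlapping groups (limma adjusted p = 0.0733 and 0.706). MAP1LC3B, which encodes the LC3 protein used as an autophagosome marker, gave 4059, 3935 and 4023 with CT45A1, against 4015, 3549 and 3699 without it. Overexpression replicate 2 lay below negative replicate 1, and the difference was 0.095 (95% interval -0.056 to 0.25, adjusted p = 0.454). GABARAPL2 differed by 0.073, with overlapping groups.

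GABARAPL1 gave 521, 565 and 513 on the overexpression arrays, against 476, 436 and 510.3 on the negative arrays, a difference of 0.17 (adjusted p = 0.405). At its other probe set it gave 477, 404 and 388, against 304, 217 and 325, a difference of 0.60 (SE 0.17, adjusted p = 0.0877 over all probe sets). The groups were apart at both. All probe sets of MAP1LC3B and GABARAPL1 end in _s_at, a suffix for sets that can match several transcripts, and close relatives of these genes were not told apart from them.

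The conjugation machinery differed little. ATG7 is the activating enzyme, ATG3 the enzyme that passes ATG8 proteins on, and ATG12, ATG5 and ATG16L1 form the complex that directs them to the membrane. ATG3 gave 4246, 4052 and 4227 with CT45A1, against 4586, 4274 and 4474 without it, a difference of -0.090 (95% interval -0.23 to 0.049, adjusted p = 0.44) with no overlap. ATG12 gave 2028, 1833 and 2055, against 2031, 2184 and 2044, a difference of -0.082. ATG5, ATG16L1 and ATG7 differed by -0.025, 0.045 and 0.067. Of these 5, 0 passed and 0 had an unadjusted p under 0.05 in limma.

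The 4 cargo receptors lay close to 0, between -0.021 and 0.086 at their brightest probe sets, and 0 passed in limma (0 at an unadjusted p under 0.05). SQSTM1, the receptor p62, gave 3485, 3715 and 3858 with CT45A1, against 3348, 3501 and 3568 without it, with overlapping groups (95% interval -0.066 to 0.24, adjusted p = 0.504). TAX1BP1 gave 6934, 7476 and 7442, against 7309.7, 7509 and 7339 (95% interval -0.15 to 0.11). NBR1 and OPTN, which also bind ubiquitin and ATG8 proteins, differed by 0.013 and -0.019. The second NBR1 probe set gave 905, 941 and 939, against 741, 732 and 737, a difference of 0.33 with no overlap (adjusted p = 0.064 over all probe sets).

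Taking all probe sets, 89 of the 103 passed the filter, and 3 of these rose and 0 fell at an adjusted p under 0.05 over 27618 probe sets, against 1.89% and 1.34% of all probe sets. The 3 were both WIPI1 probe sets and the dimmer PSAP one. Of 25 members with more than 1 tested probe set, 14 had all of them above 0, 5 had all below and 6 had them on both sides. LAMP1 was one of the 6, with 0.14 and -0.47 at its second and dimmest probe sets (adjusted p = 0.208 and 0.11), and the groups did not overlap at either. SCARB2, TPP1, TAX1BP1, ATG5 and ATG7 were the others, and their outlying probe sets differed by -0.036, 0.29, 0.064, 0.15 and -1.03, with further ones at 0.023 in TPP1 and 0.038 in TAX1BP1. The outlying ATG7 set gave 86.3, 12.4 and 91.4 with CT45A1, against 103, 74.6 and 107 without it. Its adjusted p was 0.43 over all probe sets, and its overexpression mean lay below the array median.

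**Figure D3:**
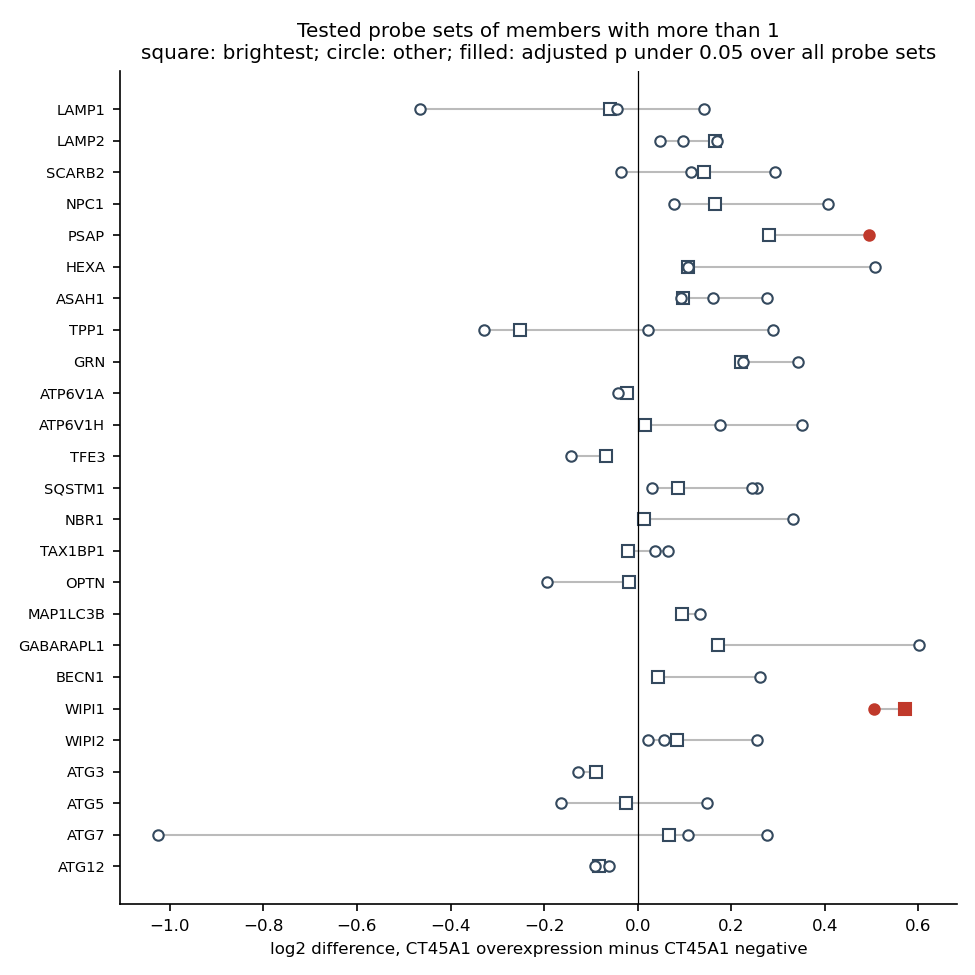
Each row gives the tested probe sets of 1 of the 25 members with more than 1, as log2 differences of CT45A1 overexpression minus CT45A1 negative, with a square for the brightest probe set and filled symbols for an adjusted p under 0.05. WIPI1 is filled at both, PSAP at 1 of 2, and 6 members have symbols on both sides of 0.

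The 14 probe sets left out were dim. Some lay over 0.5 above the brightest probe set of the gene, at 0.98 for NPC1, 1.07 for GUSB, 1.57 and 0.88 for NBR1 and 1.44 for BECN1. Others lay on the other side of 0, at -1.27 for LIPA, -0.22 for HEXA, -0.069 for TFEB, -0.13 for ATG16L1 and 0.26 and 0.47 for TFE3. At one NBR1 set the signals were 41.8, 47.5 and 62.5 with CT45A1, against 3.13, 40.9 and 37.2 without it, and at a BECN1 set they were 3.91, 48.3 and 21.5, against 4.92, 16.1 and 2.57. No test was run on the sets left out.

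The rest of the pathway was read from 138 further genes in 6 lists, of which 127 were tested. In all, 1 rose and 2 fell, against a background of 1.94% and 1.89%. Among other autophagy genes TECPR1, which binds ATG5 and helps autophagosomes meet lysosomes, gave 535, 470.2 and 495 with CT45A1, against 364, 328 and 353 without it, and rose by 0.52 (SE 0.12, adjusted p = 0.0393). The groups did not overlap, and the other 2 probe sets differed by 0.57 and 0.36. TECPR1 passed in 5 of 18 alternatives. It lost the call under every other scaling (adjusted p = 0.0740 after quantile normalization, 0.0561 with median centring and 0.0735 after cyclic loess). The call was also lost with no filter (0.0557), without the variance trend (0.0982), with the mean of probe sets (0.131) and with the actin ratio in the model (0.218). Without _x_at and _s_at sets TECPR1 was read at another probe set and did not pass (0.239). TECPR1 also lost the call without overexpression replicate 1, 2 or 3 or negative replicate 1 or 2, with adjusted p-values of 0.137, 0.110, 0.0883, 0.0921 and 0.113.

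Among 13 other V-ATPase subunits tested, ATP6V1D, a subunit of the rotating stalk, gave 6300.0, 6081 and 5722 on the overexpression arrays, against 7467, 8106 and 7517 on the negative arrays, and fell by 0.35 (SE 0.065, adjusted p = 0.0195). No arrays overlapped. Its other tested probe sets differed by -0.24, -0.39 and 0.032. It passed in 13 of 18 alternatives and lost the call without overexpression replicate 2 or negative replicate 1 or 2 (adjusted p = 0.0835, 0.0645 and 0.0727). The call was also lost without the variance trend (adjusted p = 0.161) and with the mean of probe sets, at -0.24 (adjusted p = 0.164).

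The third called gene was the cathepsin CTSZ, which fell by 1.86 on the log2 scale (adjusted p = 2.88e-06). The 13 cathepsins tested had a median of 0.171, or 0.133 after quantile normalization and after cyclic loess and 0.026 with median centring. Of 20 other hydrolases and 21 other membrane or sorting genes tested, 0 passed in limma, with 4 and 1 at an unadjusted p under 0.05 (20.9% of all genes). The smallest p-values there belonged to MAN2B1, a mannosidase, at 0.36 (adjusted p = 0.127), and to LMBRD1, which exports cobalamin, at 0.15 (adjusted p = 0.226).

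Of 21 genes for mTORC1, the Ragulator and TFEB regulators, 0 passed and 4 had an unadjusted p under 0.05 in limma, against 20.9% of all genes. In this list 16 lay below 0 and 5 above, with a median of -0.095, and 15 to 19 lay below 0 under the other scalings. The 19 were with median centring, where the median of all genes was itself -0.136. TSC2, an inhibitor of mTORC1 signalling, had the smallest p, with 249, 259.6 and 274 with CT45A1, against 172, 213 and 169 without it, a difference of 0.51 (adjusted p = 0.123).

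**Figure D4:**
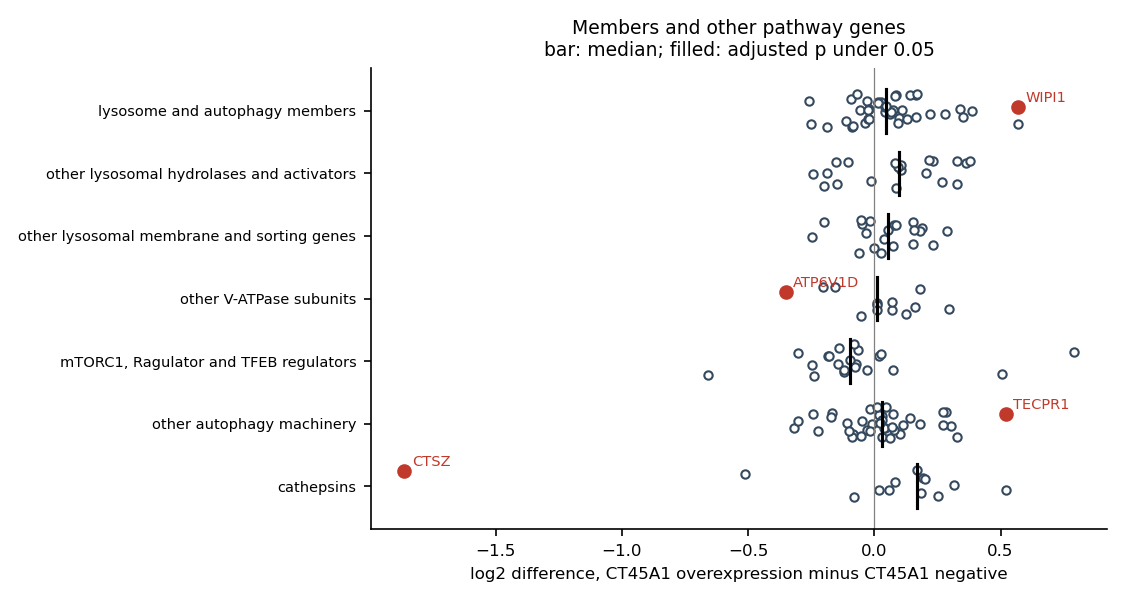
Each point is 1 gene, as the log2 difference of CT45A1 overexpression minus CT45A1 negative, for the 41 members and the 127 other genes tested, with a bar at each list's median. WIPI1, TECPR1, ATP6V1D and CTSZ are the filled points, at 0.57, 0.52, -0.35 and -1.86.

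The scaling of the arrays set the side of 0 on which many members lay. The mean log2 array median was 6.35 in the overexpression group and 6.20 in the negative group. When each array was centred on its median, the median of all genes was -0.136 and that of the members -0.100, and 10 of the 41 members lay above 0, against 26 as deposited. WIPI1 was higher under every scaling tried, by 0.51 after quantile normalization, 0.43 after median centring and 0.51 after cyclic loess (adjusted p = 0.0455, 0.0341 and 0.0460). GLA, TPP1, UVRAG and ATG3 passed as lower under median centring, at -0.33, -0.40, -0.40 and -0.23 against the shift of all genes of -0.136, and PSAP passed as higher after quantile normalization and cyclic loess, at 0.35 and 0.36.

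**Figure D5:**
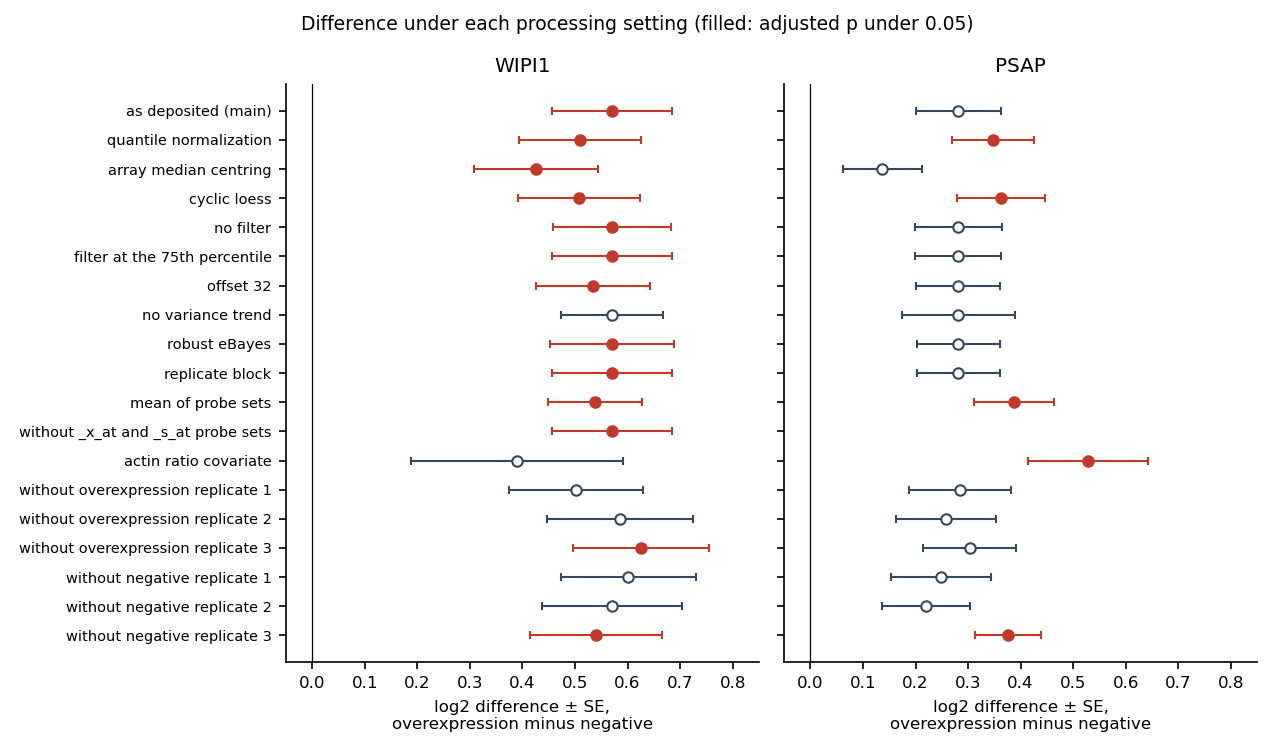
Log2 difference of CT45A1 overexpression minus CT45A1 negative with its standard error under each processing setting, for WIPI1 and PSAP at the gene level, filled where the adjusted p was under 0.05. WIPI1 passed in 12 of 18 alternatives and PSAP in 5 of 17, and both lie above 0 in all of them.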

How the data were processed

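Labelled RNA from 6 samples was hybridised to 1-colour arrays. Per the labels, the authors deposited 1 intensity per probe set, a MAS5 signal on a linear scale. The submitters' processing notes name MAS5 and affy, and their versions are not given in the sources used here. On every array the signals had a 2% trimmed mean of 500.1. A low signal says nothing on presence, as no detection call was read.

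Groups came from the sample titles. The 62 control probe sets were left out. Signals were taken to log2 with no offset, and 27618 probe sets above the array median on at least 3 of 6 arrays were kept. limma (lmFit, eBayes with trend = TRUE) gave two-sided p-values, adjusted by Benjamini-Hochberg over all probe sets kept or over 11895 genes, each gene by its brightest kept probe set. Single gene symbols of the platform annotation were updated through Entrez identifiers (GRCh38.p14 RefSeq table), and 54 kept the array's name. The fit was tested on simulated arrays. The number of arrays limits the precision.

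The members and lists were chosen with earlier results of these data known. All members are accounted for by role. Those past an adjusted p under 0.05, and the 1 or 2 with the smallest p in a role with fewer, are given by array, with any probe set of the opposite sign or over 0.5 from the brightest. Of each other list, up to 4 genes past the threshold are named, or the 1 with the smallest p. Alternatives were other scalings (quantile, median centring, cyclic loess), other filters, an offset of 32, no variance trend, robust eBayes, the replicate block, the mean of probe sets, no _x_at or _s_at sets, an actin 3'/5' covariate and leaving out each array. Promoter sequences are from RefSeq. Protein sequences were not used here. Versions were R 4.3.3, limma 3.58.1 and Python 3.11.15.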

Additional observations from a re-analysis of the deposited data

How the results depend on the processing

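Leaving out 1 array at a time, members called higher ran from 0 to 2 of 41 genes and from 0 to 5 probe sets, members called lower were 0 throughout, and other pathway genes called ran from 0 to 2 higher and from 1 to 2 lower. Among the other alternatives, against 1 member gene called higher as deposited, 2 were called after quantile normalization, after cyclic loess and with the mean of probe sets, PSAP joining WIPI1 in each, and 0 without the variance trend (limma, 6 at an unadjusted p under 0.05 on that side). Member genes called lower were 4 with median centring and 1, NPC2, with the actin covariate, where PSAP and not WIPI1 was called higher. Against 3 member probe sets called higher, there were 5 with the filter at the 75th percentile and 0 without the variance trend. There was 1 without _x_at and _s_at sets, where the dimmer WIPI1 and PSAP sets, both _s_at, were not entered. With median centring 5 were called lower. Other pathway genes called higher, 1 as deposited, were 0 with median centring, with no filter and without the variance trend, 2 with the offset, 2 with the replicate block and 4 with the actin covariate, and the 1 called was CTSV after quantile normalization and after cyclic loess, DNASE2 with the mean of probe sets and LAPTM4B without _x_at and _s_at sets, in place of TECPR1. Those called lower, 2 as deposited, were 12 with median centring and 1 without the variance trend, with the mean of probe sets and without _x_at and _s_at sets. In the last of these settings CTSZ was not entered. FNIP1 was called lower beside ATP6V1D and CTSZ with the actin covariate, at -0.80 (limma adjusted p = 0.0492). With the actin covariate 9 members, GLA and LAMP2 among them, changed sign, none of them called in either fit. The median difference of the members was -0.100 with median centring, against 0.045.

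Of all genes, 231 were called higher and 225 lower as deposited, 165 and 1650 with median centring, and 5 and 6 without the variance trend. Leaving out an array gave 56 and 81, 39 and 52 and 125 and 165 for overexpression replicates 1, 2 and 3, and 56 and 61, 86 and 78 and 312 and 253 for negative replicates 1, 2 and 3. The replicate block gave 270 and 266 and left WIPI1 the member gene called (adjusted p = 0.0254), while the deviations of same-numbered arrays from their group means correlated at -0.011, -0.0068 and 0.103 and not every array correlated best with its own number, so the numbers were not taken to pair the arrays. The CT45 differences are set against negative signals below the array median, so their sizes are not firm. The brighter CT45 probe set differed by 5.93 without the variance trend (adjusted p = 0.0716) and by 2.98 with the actin covariate (adjusted p = 0.141). The dimmer one, at 3.87 as deposited (adjusted p = 0.0468), passed in 7 of 16 alternatives. It differed by 3.76 after quantile normalization, 3.73 after cyclic loess, 3.87 with no filter, without the variance trend and without _x_at and _s_at sets, and 4.56 with the actin covariate, with adjusted p-values of 0.0611, 0.0573, 0.0730, 0.144, 0.0510 and 0.189. Without 1 array it ran from 2.66 to 4.66, and its call was lost without overexpression replicate 1, 2 or 3 (adjusted p = 0.134, 0.174 and 0.145). The causes of these changes were not tested.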
